A study of Nematostella vectensis with 33 samples.

Results

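STING shRNAs were set against a GFP shRNA in embryos of the starlet sea anemone Nematostella vectensis, in both treatments of the experiment, and 12 of the 33 libraries of the series belong to this comparison. They were taken by the shRNA and treatment in their labels, which gave 8 STING shRNA libraries and 4 GFP shRNA libraries. A short hairpin RNA (shRNA) is processed inside the cell into a small RNA that guides the degradation of a matching transcript, and a hairpin against GFP, a jellyfish fluorescent protein, was the control. Messenger RNA was sequenced from whole embryos that had been microinjected with an shRNA. The question named by the study's design is which factors the response to 2'3'-cGAMP needs.

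The 4 STING libraries with 2'3'-cGAMP comprised 2 with STING shRNA 1 and 2 with STING shRNA 2, all from embryos kept in 100 µM 2'3'-cGAMP for 4 h, and the 2 GFP libraries with 2'3'-cGAMP had the same dose and time. The 4 untreated STING libraries again comprised 2 per hairpin, and there were 2 untreated GFP libraries. Every library therefore carried an shRNA, and no uninjected embryos were compared. STING shRNA 1 and STING shRNA 2 are separate hairpins against 1 gene, so the 4 STING libraries of a treatment share a target. The labels do not say how many embryos went into a library or whether libraries of a group came from separate batches of embryos, and each p-value below reflects only how these libraries vary, which may be technical.

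STING is a receptor of the endoplasmic reticulum that binds cyclic dinucleotides. In vertebrates the enzyme cGAS senses DNA in the cytosol and makes 2'3'-cGAMP, STING binds it and recruits the kinase TBK1, and the transcription factors IRF3 and NF-kB then switch on interferon and inflammatory genes. Cnidarians such as Nematostella have a STING protein that binds 2'3'-cGAMP but lack the interferons of vertebrates. Whole embryos are a mixture of cell types, and fewer cells of a type and less RNA per cell cannot be told apart in such RNA.

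The reference available here gives placeholder symbols (LOC and a number) without product names, so the STING gene was not matched to an identifier and its depletion by the hairpins was not analysed here. Gene roles are not given for the same reason. A set of 16 lists of pathway and cell type names, among them cyclic dinucleotide sensing, NF-kB, antiviral genes, RNA interference, cnidocytes and neurons, matched 0 genes, so the embryos could not be checked against tissue markers. Values are the deposited normalised counts, which came to 20.5 to 29.3 M (mega) per library. Of all listed genes, 21.6% were at 0 in GFP untreated library 1 and 14.4% in GFP 2'3'-cGAMP library 4, with 3.99% to 11.3% at 0 in the remaining 10. These are 2 of the 4 control libraries, and the main results below are also given without them. (The GFP 2'3'-cGAMP libraries are numbered 4 and 5 in the labels, and all others 1 and 2.)

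Embryos with STING shRNAs differed from GFP shRNA embryos in no gene that passed the adjusted threshold over both treatments. The smallest p belonged to LOC5506676, which had lower values with both hairpins and in both treatments. Its level in 2'3'-cGAMP was 3102 and 5514 normalised counts with STING shRNA 1 and 2482 and 4181 with STING shRNA 2, against 12361 and 11216 with the GFP shRNA. In untreated embryos it was 380.2 and 284.2 with STING shRNA 1 and 116.8 and 220.3 with STING shRNA 2, against 868.5 and 709.1 with the GFP shRNA. Every STING library lay below every GFP library of the same treatment, by a wide margin with 2'3'-cGAMP.

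Over both treatments the level of LOC5506676 with STING shRNAs was 3.31-fold lower than with the GFP shRNA, a log2 difference of -1.73 (SE 0.23, 95% interval -2.23 to -1.23) on the scale of log2(value + 1), which is used for every log2 value below. This was the smallest p of all genes (4.89e-06, limma), but after Benjamini-Hochberg adjustment over 20879 tested genes it was 0.102, so the gene was not called at the threshold of 0.05. Without the 2 GFP libraries with most genes at 0 the difference was -1.62, with an adjusted p of 0.991 by limma. With all libraries it was -1.69 in 2'3'-cGAMP (-2.43 to -0.95) and -1.77 in untreated embryos (-2.51 to -1.03). The difference between these 2 effects was 0.08 (-0.97 to 1.13). LOC5506676 responded to 2'3'-cGAMP by 3.98 on the log2 scale with STING shRNAs and 3.91 with the GFP shRNA.

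**Figure D1:**
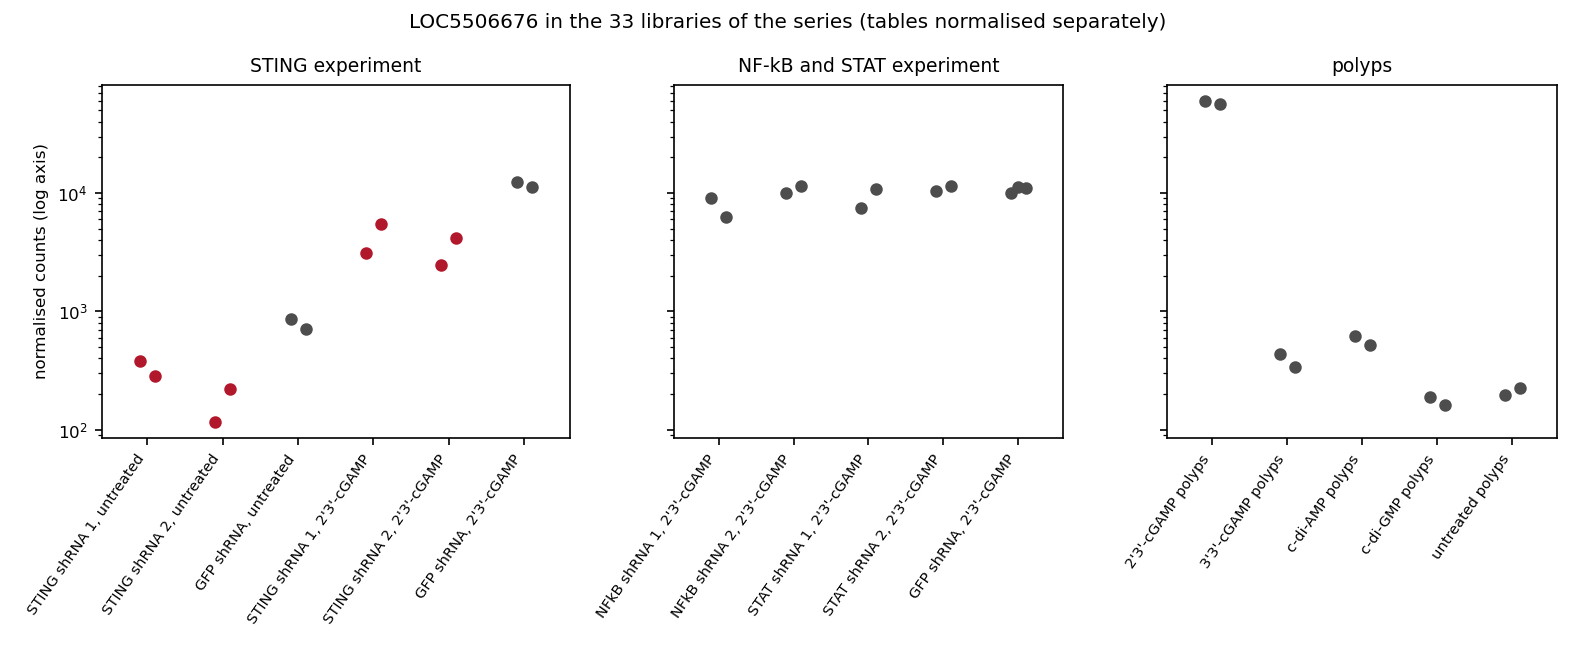
Normalised counts of LOC5506676 (log axis) in each of the 33 libraries, with 1 point per library and STING shRNA libraries in red. With 2'3'-cGAMP the STING libraries lie at 2482 to 5514 and the GFP libraries of the same experiment at 11216 and 12361; the 3 tables were normalised separately, so levels are to be compared within a panel.

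The same gene is among the genes that 2'3'-cGAMP raised in polyps, which are separate animals in a separately normalised table. There it stood at 60535 and 56646 normalised counts after 2'3'-cGAMP, against 196.2 and 223.0 in untreated polyps, and rose by 8.12 on the log2 scale (adjusted p = 2.01e-10, limma). Equal library totals shift the median of all polyp genes to -1.21 on the log2 scale, against -0.10 as deposited, and there LOC5506676 rose by 6.97. It also rose with c-di-AMP, to 618.7 and 522.4 normalised counts (log2 change 1.44, adjusted p = 0.00206, limma). With 3'3'-cGAMP it stood at 437.2 and 338.5, and with c-di-GMP at 186.8 and 160.6. In the experiment with NF-kB and STAT shRNAs, where all embryos received 2'3'-cGAMP, its level was 6238 to 11510 in 4 NF-kB shRNA libraries (median 9552), 7499 to 11442 in 4 STAT shRNA libraries (median 10571) and 10090 to 11162 in 3 GFP shRNA libraries (median 11038). These ranges overlapped, with log2 differences from the GFP shRNA of -0.26 for NF-kB (adjusted p = 0.5, limma) and -0.12 for STAT (adjusted p = 0.953, limma). The difference between the STING effect and either of these was not tested.

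NCBI Gene 116616001 followed a pattern close to that of LOC5506676 at a lower level. With 2'3'-cGAMP it had 229.0 and 416.8 normalised counts with STING shRNA 1 and 275.4 and 357.3 with STING shRNA 2, against 1630 and 1016 with the GFP shRNA. Untreated embryos had 27.2 and 18.2 with STING shRNA 1 and 11.3 and 24.9 with STING shRNA 2, against 47.3 and 74.99 with the GFP shRNA. The groups did not overlap in either treatment. The log2 difference over both was -1.81 (SE 0.32, 95% interval -2.51 to -1.11, adjusted p = 0.243, limma), with -2.04 in 2'3'-cGAMP and -1.57 in untreated embryos. This gene too rose with 2'3'-cGAMP in polyps, by 8.56 on the log2 scale (adjusted p = 1.51e-08, limma), and with c-di-AMP, by 2.63 (adjusted p = 0.00764, limma). With 2'3'-cGAMP in embryos it had a median of 859.3 normalised counts with NF-kB shRNAs, 1182 with STAT shRNAs and 1095 with the GFP shRNA of that experiment.

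Limma called 0 of 20879 genes (0%) for STING against GFP shRNA over both treatments, but 2093 with array quality weights, which give variable libraries less influence, and 1840 without STING shRNA 1 untreated library 1. With 0 calls the rule for named genes takes 5 genes per direction in order of p, provided that a gene averaged at least 50 normalised counts over the 12 libraries. At most 2 per direction may lack a reference symbol, so some genes with a smaller p were passed over. The other 3 lower genes had smaller or more variable differences. LOC5511630 had 764.8, 761.5, 664.9 and 672.1 normalised counts in the 4 STING libraries with 2'3'-cGAMP, against 1237 and 976.3 with the GFP shRNA, and 657.6, 488.4, 400.5 and 455.4 in the 4 untreated STING libraries, against 984.2 and 727.1. NCBI Gene 116609883 had 215.4, 322.0, 434.6 and 266.0 with STING shRNAs and 2'3'-cGAMP, against 546.8 and 552.7 with the GFP shRNA, and 383.7, 301.3, 187.6 and 228.9 untreated, against 768.8 and 549.1. In these lists of 4 the libraries of STING shRNA 1 come first and those of STING shRNA 2 follow.

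LOC5504526 had 21.1, 20.8, 34.8 and 23.2 normalised counts with STING shRNAs and 2'3'-cGAMP, against 106.2 and 81.3 with the GFP shRNA, and 50.9, 91.7, 49.2 and 41.7 untreated, against 257.2 and 97.3. In each of these 3 genes no STING library reached the lowest GFP library of its treatment. The log2 difference over both treatments was -0.70 for LOC5511630 (SE 0.15), -1.08 for NCBI Gene 116609883 (SE 0.24) and -1.69 for LOC5504526 (SE 0.40), each with an adjusted p of 0.243 by limma. In polyps LOC5511630 had a log2 difference of 0.79 after 2'3'-cGAMP (adjusted p = 0.0305, limma), which turned to -0.34 with equal library totals. In the separately normalised NF-kB and STAT experiment, the 3 GFP libraries had 9.54 to 24.2 normalised counts of LOC5504526. There LOC5511630 had 511.6 to 662.2 and NCBI Gene 116609883 had 280.9 to 347.1. For all 3 genes these values lay below both GFP libraries with 2'3'-cGAMP of the STING experiment, and why was not tested.

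Of the higher genes taken by this rule, NCBI Gene 5503310 had the smallest p. With 2'3'-cGAMP it had 1870 and 590.6 normalised counts with STING shRNA 1 and 875.7 and 1021 with STING shRNA 2, against 320.7 and 436.5 with the GFP shRNA. Untreated embryos had 379.1 and 318.1 with STING shRNA 1 and 700.6 and 704.6 with STING shRNA 2, against 148.3 and 136.3 with the GFP shRNA. All 8 STING values lay above the GFP values of their treatment, although the first STING shRNA 1 library with 2'3'-cGAMP stood far above the second. The log2 difference was 1.60 (SE 0.29, 95% interval 0.97 to 2.23, adjusted p = 0.243, limma). NCBI Gene 5503310 was called higher with NF-kB shRNAs, against other GFP libraries: it had 433.5 to 685.5 normalised counts in 4 NF-kB libraries and 180.5 to 371.9 in 3 GFP libraries, a log2 difference of 0.98 (adjusted p = 0.0374, limma). With STAT shRNAs it had 418.8 to 641.5, a log2 difference of 0.89 that was not called (adjusted p = 0.645, limma), although these libraries too lay above the 3 GFP libraries.

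NCBI Gene 116606721 had 1619, 1227, 1243 and 1364 normalised counts with STING shRNAs and 2'3'-cGAMP, against 311.2 and 703.3 with the GFP shRNA, and 111.6, 263.6, 374.9 and 359.0 untreated, against 31.2 and 82.2. LOC5510408 had 2402, 1584, 1518 and 1851 with 2'3'-cGAMP, against 495.3 and 952.8, and 614.6, 1058, 1090 and 1170 untreated, against 416.5 and 523.4. Neither gene overlapped between STING and GFP libraries, and of the 2 GFP libraries with 2'3'-cGAMP library 4 was the lower in both genes. The log2 difference was 1.91 for NCBI Gene 116606721 (SE 0.35) and 1.21 for LOC5510408 (SE 0.23), both with an adjusted p of 0.243 by limma. In polyps NCBI Gene 116606721 rose with 2'3'-cGAMP by 4.23 on the log2 scale (adjusted p = 0.00245, limma), and by 3.11 with equal totals. In the 3 GFP libraries of the separately normalised NF-kB and STAT experiment it had 1816 to 1886 normalised counts. These lay above all STING values of the gene given here, and why was not tested. LOC5510408 had 798.5 to 1011 there, below its STING values with 2'3'-cGAMP.

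LOC5519989 had 3258, 2329, 2655 and 2463 normalised counts with STING shRNAs and 2'3'-cGAMP, against 1338 and 1827 with the GFP shRNA, and 1626, 1885, 2658 and 2107 untreated, against 1103 and 1318. LOC5507818 had 271.5, 235.5, 348.8 and 284.9 with 2'3'-cGAMP, against 128.1 and 203.1, and 213.6, 221.3, 361.9 and 310.1 untreated, against 97.7 and 133.0. Both were higher in all 8 STING libraries than in the GFP libraries of the same treatment. Their log2 differences were 0.76 (SE 0.16) and 1.02 (SE 0.22), both with an adjusted p of 0.243 by limma. In polyps LOC5519989 fell with 2'3'-cGAMP by 1.08 on the log2 scale (adjusted p = 0.000151, limma), and by 2.23 with equal totals. The 3 GFP libraries of the NF-kB and STAT experiment had 1037 to 1377 of LOC5519989 and 54.6 to 120.8 of LOC5507818. Both ranges lay below the STING values with 2'3'-cGAMP.

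Without the 2 GFP libraries with most genes at 0, all 10 genes kept their sign, each with an adjusted p of 0.991 by limma. The lower genes then had log2 differences of -1.62 for LOC5506676, -1.80 for NCBI Gene 116616001, -0.51 for LOC5511630, -0.96 for NCBI Gene 116609883 and -1.25 for LOC5504526. The higher genes had 1.52 for NCBI Gene 5503310, 1.27 for NCBI Gene 116606721, 0.89 for LOC5510408, 0.58 for LOC5519989 and 0.74 for LOC5507818. Of these the difference of NCBI Gene 116606721 moved most on the log2 scale, against 1.91 with all libraries. The kept signs were nearly fixed in advance, since STING and GFP libraries did not overlap within a treatment in any of these genes.

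**Figure D2:**
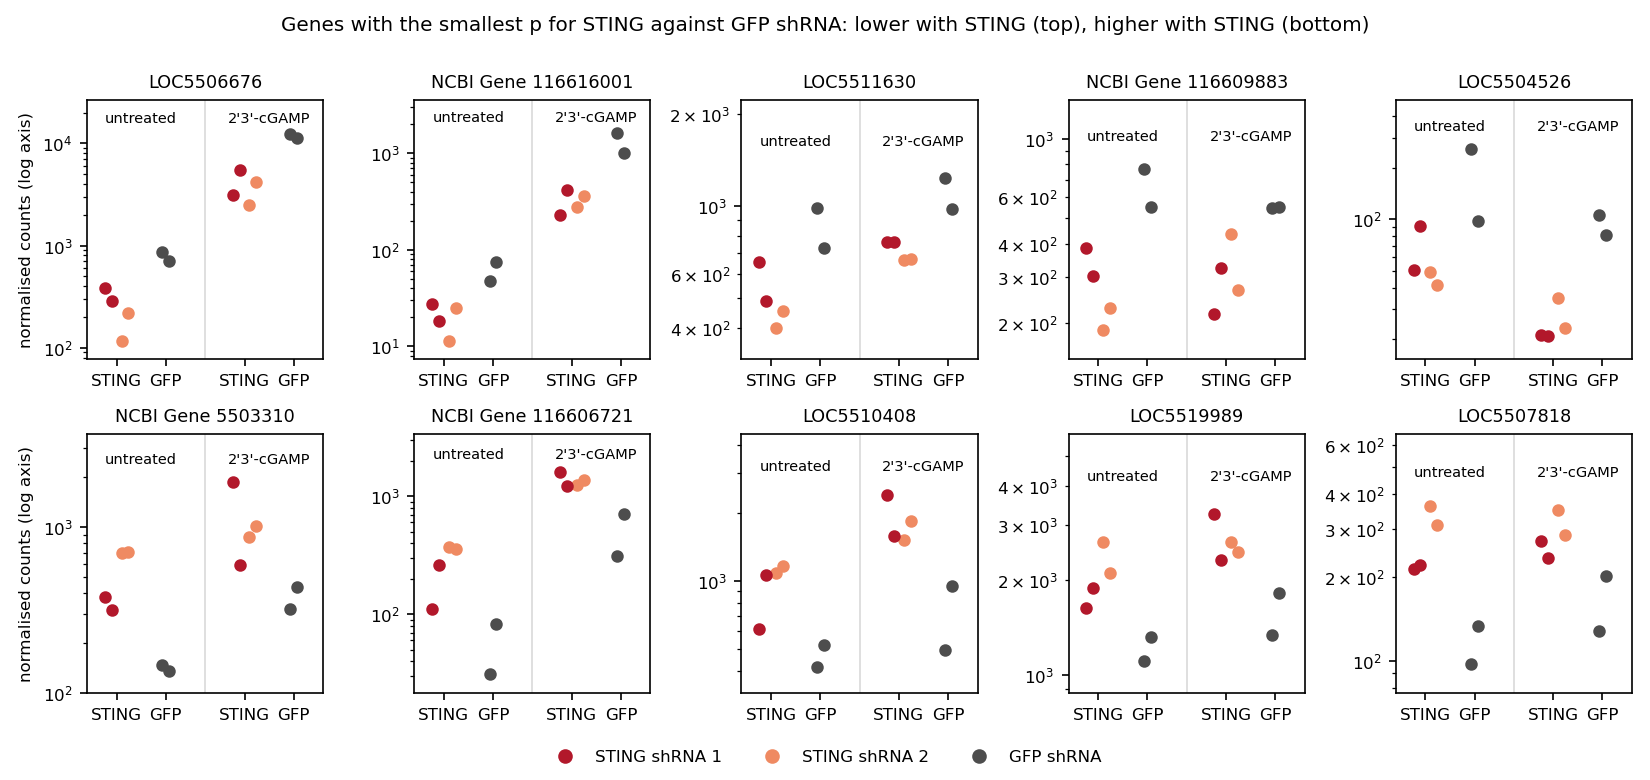
Normalised counts (log axes that differ between panels) of 5 lower and 5 higher genes, taken in order of p for STING against GFP shRNA with a mean of at least 50 and at most 2 per direction without a reference symbol, with 1 point per library, the untreated libraries on the left and the 2'3'-cGAMP libraries on the right of each panel. In all 10 genes the 4 STING points of a treatment lie on 1 side of the 2 GFP points; the genes were picked by p from these same libraries.

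Of the 10 genes, LOC5506676, NCBI Gene 116616001 and NCBI Gene 116606721 were those with a response to 2'3'-cGAMP above 2 on the log2 scale under both kinds of shRNA. LOC5506676 and NCBI Gene 116616001 were lower with STING shRNAs and NCBI Gene 116606721 was higher. The responses of NCBI Gene 116616001 were 3.94 with STING shRNAs and 4.41 with the GFP shRNA, and those of NCBI Gene 116606721 were 2.43 with STING shRNAs and 3.18 with the GFP shRNA. The intervals of the differences in response, -2.01 to 1.06 and -2.24 to 0.73, include 0. The test of a difference of the STING effect between treatments called no gene (0 of 20879, 0%). An unadjusted p below 0.05 was found for 311 genes (1.49%), or 72 without the 2 GFP libraries with most genes at 0, and the median interval of a gene reached 1.41 to either side.

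In untreated embryos alone 1 gene was called (0.00479% of 20879), and 1374 had an unadjusted p below 0.05 (6.58%). In 2'3'-cGAMP alone 0 were called (0%), and 1616 had an unadjusted p below 0.05 (7.74%). These counts were 265 untreated and 105 in 2'3'-cGAMP without the 2 GFP libraries with most genes at 0. The untreated count was 214 without GFP untreated library 1 and 4951 without library 2, and the 2'3'-cGAMP count was 57 without GFP library 4 and 4735 without library 5. The called gene, LOC116612243, had 42.0, 35.6, 18.8 and 13.5 normalised counts in the untreated STING libraries, against 0 and 0.896 in the untreated GFP libraries. With 2'3'-cGAMP it had 1042, 1388, 1026 and 1369 with STING shRNAs, against 1465 and 1322 with the GFP shRNA. The untreated groups were well apart, whereas those with 2'3'-cGAMP overlapped. The log2 difference was 4.24 in untreated embryos (95% interval 3.28 to 5.19, adjusted p = 0.0261, limma) and -0.22 in 2'3'-cGAMP (-1.18 to 0.74), and the difference between these, -4.46, had an adjusted p of 0.411 by limma. The fitted untreated value depends on the pseudocount, since 1 of the 2 GFP libraries was at 0: it was 2.48 (adjusted p = 0.443, limma) with a pseudocount of 5. The call was kept in 7 of 23 other settings, and without GFP untreated library 1 the adjusted p was 0.0936 by limma.

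Across all genes, 4029 had an unadjusted p below 0.05 over both treatments (19.3%), 2507 of them higher (12%) and 1522 lower (7.29%) with STING shRNAs. An even spread of p-values would put 5% there. Of the 4029 genes, 964 were higher and 323 lower by at least 2-fold. The direction depends on scaling: 62.2% of these genes were higher with the deposited scaling and 60.7% with TMM factors, but 47.7% when library totals were made equal, and the median log2 difference of all genes was 0.0926, 0.0917 and 0.0136 under these 3 scalings. The median interval of a gene reached 0.668 to either side.

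These counts rest on single libraries. Without GFP 2'3'-cGAMP library 4 the share of genes below an unadjusted p of 0.05 was 6.41%, without GFP untreated library 1 it was 9.75%, and without both it was 2.79% (577 of 20687). It was 31.9% without STING shRNA 1 untreated library 1, 29.5% without GFP untreated library 2 and 26.4% without GFP 2'3'-cGAMP library 5. For the other 7 libraries it was 12.4% to 19.1%. The log2 difference of LOC5506676 ran from -1.83 to -1.58 over 23 other settings, and it was called in 3 of them.

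**Figure D3:**
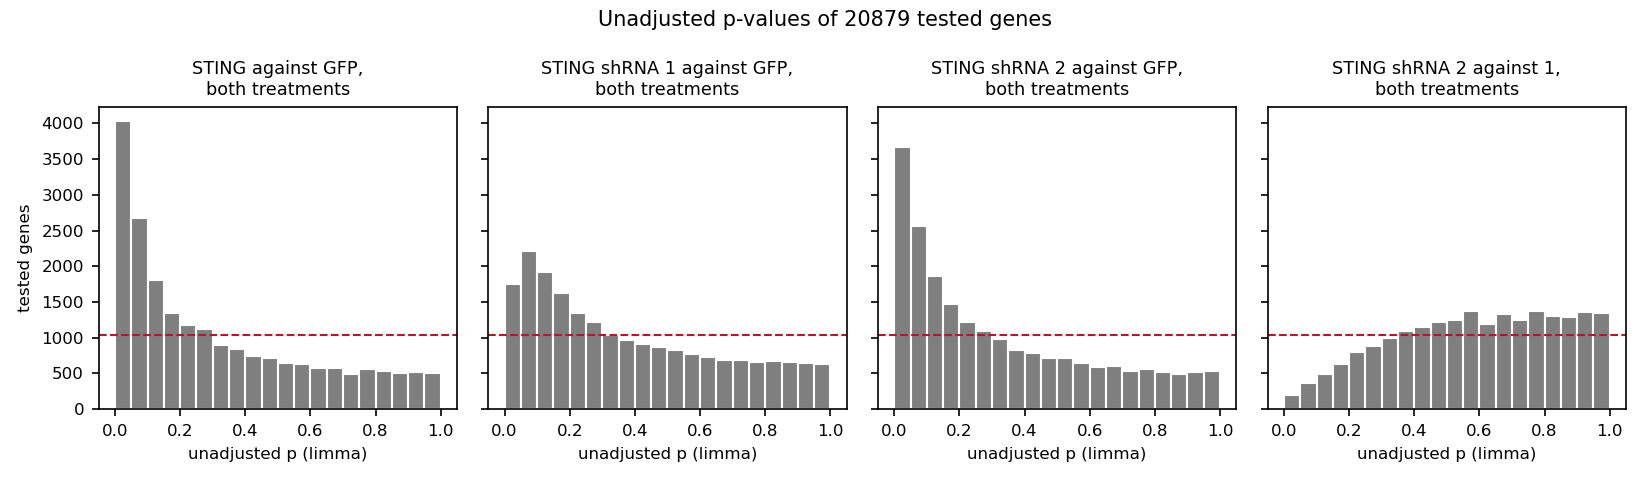
Number of tested genes (vertical axis) by unadjusted limma p in bins of 0.05 (horizontal axis), for STING against GFP shRNA, each hairpin against GFP shRNA, and hairpin 2 against hairpin 1, over both treatments; the dashed line is the height of an even spread. The first bin holds 4029, 1751, 3678 and 202 genes.

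The hairpins were also compared on their own, and both of these comparisons use the same 4 GFP libraries. STING shRNA 1 gave 1751 genes at an unadjusted p below 0.05 (8.39%) and STING shRNA 2 gave 3678 (17.6%), with 0 called for either (0% each) and smallest adjusted p-values of 0.521 and 0.0672 by limma. Leaving out both GFP libraries with most genes at 0 gave 499 for STING shRNA 1 and 595 for STING shRNA 2, and with 1 library left out they ran over 640 to 5418 and 1362 to 5801. LOC5506676 was lower with STING shRNA 1 by a log2 difference of -1.38 (95% interval -1.95 to -0.81) and with STING shRNA 2 by -2.08 (-2.65 to -1.50). For NCBI Gene 116616001 the differences were -1.72 with STING shRNA 1 and -1.90 with STING shRNA 2, for NCBI Gene 5503310 they were 1.39 and 1.82, and for NCBI Gene 116606721 1.66 and 2.15. The sign was the same with both hairpins in all 10 named genes, which their choice by the mean of both hairpins nearly fixes.

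STING shRNA 2 against STING shRNA 1, a difference that takes no GFP value, called 0 genes (0%), and 202 had an unadjusted p below 0.05 (0.967%), fewer than an even spread gives. The GFP libraries enter this fit through the shared spread, and with both high-zero ones left out the count was 468. The median size of the log2 difference was 0.193 between the hairpins and 0.416 between STING and GFP shRNAs. LOC5506676 was lower with STING shRNA 2 than with STING shRNA 1 by a log2 difference of -0.70 (-1.27 to -0.12, adjusted p = 1, limma). The median gene's interval for this comparison reached 0.771 to either side, so differences between the hairpins below that size were mostly not detectable.

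The untreated and the 2'3'-cGAMP libraries are separate, each with its own GFP libraries, and so allow the STING effect to be read more than once. Across 20879 genes the effect in 2'3'-cGAMP and the effect in untreated embryos had a Pearson's r of 0.341 and a Spearman's rho of 0.458, and r was 0.529 over the 15913 genes averaging 50 or more. Genes are not independent replicates and the libraries share a protocol, so this is a description. Without the pair of GFP libraries with most genes at 0, r was 0.2 and rho 0.322 over 20687 genes, and r was 0.41 over 15915 genes averaging 50 or more. The shares that follow use all libraries, including that pair, and are not given without it. Of the 617 genes lower in 2'3'-cGAMP at an unadjusted p below 0.05 (2.96%), 91.2% were also on the lower side in untreated embryos, where 44.9% of all genes were, with a median log2 difference of -0.47. Of the 999 genes higher in 2'3'-cGAMP (4.78%), 89.5% were on the higher side in untreated embryos, where 55.1% of all genes were, with a median of 0.51. Below an unadjusted p of 0.05 in the same direction in untreated embryos were 33 of the 617 (5.35%, against 1.25% of all genes) and 127 of the 999 (12.7%, against 5.33%). Both p-values of a gene use a spread shared by all groups of the same fit. A gene with a small spread is thus favoured in both treatments, so these shares are not separate readings. Chosen the other way round, of 261 genes lower and 1113 higher in untreated embryos at an unadjusted p below 0.05, 79.7% and 78.8% had the same sign in 2'3'-cGAMP, where 46.7% and 53.2% of all genes did.

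**Figure D4:**
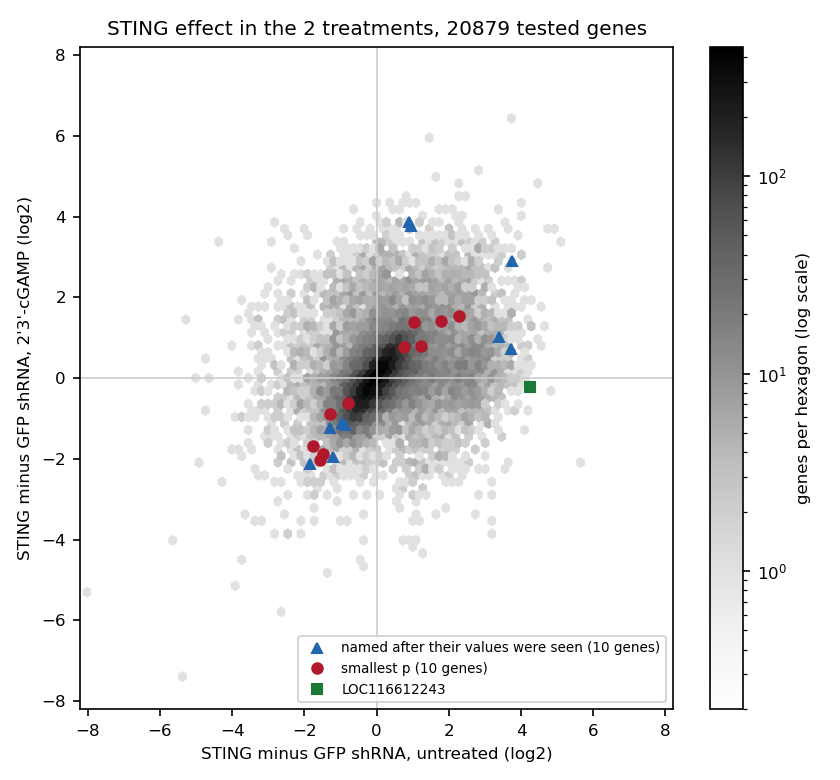
Log2 difference of STING minus GFP shRNA in untreated embryos (horizontal axis) and in 2'3'-cGAMP (vertical axis) for 20879 genes, shown as hexagons shaded by the number of genes, with the genes named in the text as coloured marks. The cloud leans loosely along the diagonal (r = 0.341, or 0.2 without the 2 GFP libraries with most genes at 0). An arm of genes differs mainly in untreated embryos, and LOC116612243 stands there at 4.24 and -0.22. GFP untreated library 1, with 21.6% of genes at 0, is 1 of the 2 untreated controls.

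Genes whose STING and GFP libraries did not overlap within either treatment numbered 121 in the lower direction (0.58% of tested genes) and 256 in the higher (1.23%). With 4 libraries against 2 per treatment, some genes are apart by the order of values alone, and their number was not estimated. Being apart is thus a description and no test. Within 2'3'-cGAMP alone the groups did not overlap for 2214 lower genes (10.6%) and 2630 higher genes (12.6%), and in untreated embryos for 811 (3.88%) and 1142 (5.47%). Of the genes apart in both, 110 lower and 222 higher genes averaged 50 or more, and 13 and 43 of these differed by at least 2-fold. Their median log2 differences were -0.63 for the lower and 0.70 for the higher genes before any limit on the mean. Without the 2 GFP libraries with most genes at 0, which leaves 1 control per treatment and so loosens the rule, 751 lower (3.63%) and 909 higher genes (4.39%) were apart.

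Some large differences in this set were named after their values were seen, taking genes that have a symbol in the reference. LOC116612551 had 4.91, 18.8, 58.0 and 41.7 normalised counts with STING shRNAs and 2'3'-cGAMP, against 124.2 and 83.8 with the GFP shRNA, and 67.5, 46.7, 7.65 and 23.4 untreated, against 134.2 and 79.0, a log2 difference of -2.0 (SE 0.69). LOC5521414 had 387.9, 595.5, 525.6 and 444.8 with STING shRNAs and 2'3'-cGAMP, against 1214 and 910.2 with the GFP shRNA, and 399.1, 151.3, 164.9 and 228.9 untreated, against 433.0 and 427.5, a log2 difference of -1.05 (SE 0.25). Both were thus lower in all 8 STING libraries, but the untreated gap of LOC5521414 was narrow for 1 of the 4. LOC5521414 rose with 2'3'-cGAMP in polyps by 2.57 on the log2 scale (adjusted p = 0.000344, limma), and by 1.43 with equal totals. LOC5513358, LOC116620835 and LOC5518184 had log2 differences of -1.58, -1.27 and -1.02. No gene of these 5 was called (adjusted p of 0.243 to 0.245, limma). In the 3 GFP libraries of the separately normalised NF-kB and STAT experiment, LOC5513358 had 1.15 to 21.3 and LOC116612551 7.85 to 12.1. There LOC5518184 had 24.1 to 38.4, LOC5521414 475.3 to 833.6 and LOC116620835 42.6 to 99.9. All but LOC116620835 lay below both GFP libraries with 2'3'-cGAMP here, and why was not tested.

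In the higher direction the 5 genes picked in the same way were each at 0 in 1 GFP library, unlike NCBI Gene 116606721, NCBI Gene 5503310 and LOC5510408 above. No gene of these 5 was called over both treatments (adjusted p of 0.243 to 0.244, limma). LOC5505970 had 78.9, 129.5, 56.7 and 96.7 normalised counts with STING shRNAs and 2'3'-cGAMP, against 1.63 and 52.4 with the GFP shRNA, and 99.8, 82.8, 132.3 and 165.7 untreated, against 0 and 74.3, a log2 difference of 3.32 (SE 1.01). LOC5503792 was at 0 and 66.2 in the untreated GFP libraries and at 78.3 to 159.2 in the untreated STING libraries. LOC5514457 was at 0 and 10.8 in the GFP libraries with 2'3'-cGAMP and at 26.5 to 75.97 in the STING libraries. In these genes the lower GFP value always came from untreated library 1 or 2'3'-cGAMP library 4, which had the largest shares of genes at 0, and the other GFP library stood much nearer to the STING libraries. LOC5512281 and LOC116604813 were likewise at 0 in 1 of those 2 GFP libraries, with log2 differences of 2.35 and 2.20 whose size depends on the pseudocount. Without those 2 GFP libraries the log2 differences of the 5 genes were 0.675 for LOC5505970, 0.702 for LOC5503792, 1.27 for LOC5514457, 0.487 for LOC5512281 and 0.583 for LOC116604813.

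Genes that the polyp libraries or the NF-kB libraries called were then followed in the STING comparison. Of the 1089 genes that 2'3'-cGAMP raised in polyps by at least 3 on the log2 scale (5.88% of 18511 polyp genes), 1058 were tested in these embryos. With STING shRNAs and 2'3'-cGAMP, 29 of them were higher and 31 lower at an unadjusted p below 0.05 (2.74% and 2.93%, against 4.78% and 2.96% of all genes). Their median log2 difference was 0.011, against 0.0545 for all genes. With equal library totals these medians were -0.0868 and -0.04. In untreated embryos 160 were higher and 25 lower (15.1% and 2.36%, against 5.33% and 1.25% of all genes), with a median of 0.26. Without the 2 GFP libraries with most genes at 0, the untreated median was 0.0831 and the shares were 4.83% and 1.04%, against 1.03% and 0.247% of all genes. Of the 724 genes that fell in polyps by at least 3 (3.91%), 689 were tested, and their median was -0.145 in 2'3'-cGAMP and -0.153 in untreated embryos. The sign of both turned without those 2 libraries (0.0329 and 0.00321).

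All 143 genes that c-di-AMP raised in polyps (0.773% of 18511) were tested. In untreated embryos 44 were higher and 3 lower with STING shRNAs at an unadjusted p below 0.05 (30.8% and 2.1%, against 5.33% and 1.25% of all genes), with a median log2 difference of 0.46. In 2'3'-cGAMP 9 were higher and 8 lower (6.29% and 5.59%, against 4.78% and 2.96%), with a median of 0.0564, against 0.0545 for all genes. With equal library totals these medians were -0.0418 and -0.04. Their mean log2 level in untreated embryos was 8.80 and 8.41 with STING shRNA 1 and 8.98 and 9.0 with STING shRNA 2, against 8.14 and 8.43 with the GFP shRNA. The second STING shRNA 1 library thus lay within the GFP range and the other 3 lay above it. Without the pair of GFP libraries with most genes at 0, 16 were higher and 2 lower in untreated embryos (11.2% and 1.4%, against 1.03% and 0.247% of all genes), with a median of 0.358. In 2'3'-cGAMP, where 1 GFP library then remained, the median of the 143 genes was -0.0851, against -0.0101 for all genes.

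NF-kB is, beside IRF3, a transcription factor that acts below STING in vertebrates. Its shRNAs were tested in other embryos, all with 2'3'-cGAMP and with their own GFP libraries. Of the 241 genes called higher with NF-kB shRNAs (1.2% of 20058), 76 were higher and 6 lower with STING shRNAs over both treatments at an unadjusted p below 0.05 (31.5% and 2.49%, against 12% and 7.29% of all genes). Their median log2 difference was 0.253 in 2'3'-cGAMP and 0.213 in untreated embryos, and 0.155 and 0.144 with equal library totals. The STING and GFP libraries did not overlap in either treatment for 7 of the 241, all higher with STING shRNAs (2.9%, against 1.23% of all genes). By the same rule 15 of the 1058 polyp genes raised by 2'3'-cGAMP were lower and 12 (1.13%) higher. Of the 689 that fell, 2 were lower and 5 (0.726%) higher, and of the 143 raised by c-di-AMP 3 and 4 (2.8%). Of 313 tested genes called lower with NF-kB shRNAs, 5 were lower and 2 (0.639%) higher. Among all genes 0.58% were lower and 1.23% higher. The lower share exceeded that of all genes in the lists raised by 2'3'-cGAMP, raised by c-di-AMP and called lower with NF-kB shRNAs. It was below that of all genes for the polyp genes that fell and for the 241. These shares rest on few genes and were not tested. None of the 241 was called.

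The mean log2 level of these 241 genes in untreated embryos was 9.72 and 9.71 with STING shRNA 1 and 9.94 and 9.83 with STING shRNA 2, against 9.49 and 9.55 with the GFP shRNA. With 2'3'-cGAMP it was 10.88 and 10.57 with STING shRNA 1 and 10.61 and 10.64 with STING shRNA 2, against 10.33 and 10.59 with the GFP shRNA. The untreated groups did not overlap, and those with 2'3'-cGAMP did. By hairpin, 12.4% of the genes were higher and 0.415% lower with STING shRNA 1 at an unadjusted p below 0.05, against 5.29% and 3.1% of all genes. With STING shRNA 2 the shares were 27.8% and 4.56%, against 10.9% and 6.69% of all genes. Without the 2 GFP libraries with most genes at 0, 13 were higher and 1 lower (5.39% and 0.415%, against 1.88% and 0.914% of all genes), with a median over both treatments of 0.16. By treatment, each with 1 GFP library left, the median of the 241 genes was then 0.0944 in 2'3'-cGAMP and 0.228 in untreated embryos. The medians of all genes were then -0.0101 and -0.0146. Of the 314 genes called lower with NF-kB shRNAs (1.57%), 313 were tested, 30 were higher and 17 lower over both treatments (9.58% and 5.43%, against 12% and 7.29% of all genes), and the median was -0.0221 in 2'3'-cGAMP and 0.0984 in untreated embryos. The medians of all genes were 0.0545 in 2'3'-cGAMP and 0.0757 in untreated embryos. With equal library totals 20 of the 313 were higher and 21 lower (6.39% and 6.71%, against 9.12% and 10% of all genes). Without the 2 GFP libraries with most genes at 0 there were 6 and 5 (1.92% and 1.6%, against 1.88% and 0.914% of all genes).

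**Figure D5:**
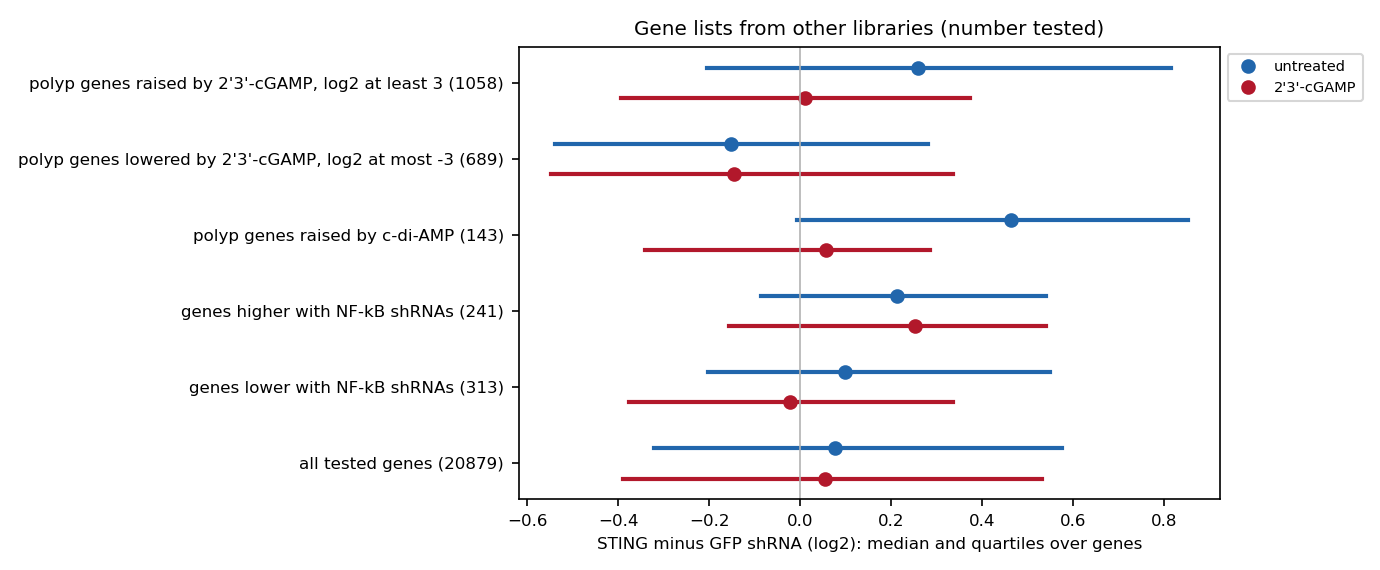
Median (points) and quartiles (lines) over genes of the log2 difference of STING minus GFP shRNA in untreated embryos and in 2'3'-cGAMP, for lists taken from other libraries of the series, with the number of tested genes in brackets. The 143 genes raised by c-di-AMP in polyps have medians of 0.46 untreated and 0.0564 in 2'3'-cGAMP, and the 241 genes higher with NF-kB shRNAs 0.213 and 0.253. Without the 2 GFP libraries with most genes at 0 these were 0.358 and -0.0851 for the 143 genes, and 0.228 and 0.0944 for the 241.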

How the data were processed

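The authors deposited signal values per gene that the labels call normalised counts. FastQC 0.11.9, kallisto 0.46.1 and DESeq2 are named in the submitters' processing notes, without roles, and the transcriptome build is not given in the sources used here. At most 0.11% of low values were whole multiples of a library's most frequent low value (tolerance 1e-04 of it), so reads were not recovered, sequencing depth is unknown and no count test was run. Of the gene identifiers, 74.5% matched the reference (assembly jaNemVect1.1).

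Genes with at least 10 in at least 2 of the 12 libraries (20879 of 22407) were put on the log2(value + 1) scale and fitted with limma 3.58.1 (R 4.3.3) with a variance trend. The fit over both treatments had a term per shRNA and per treatment, with the mean of both hairpins set against GFP. Effects within a treatment came from 1 mean per group. P-values are two-sided and Benjamini-Hochberg adjusted over the tested genes, with calls below 0.05. Scripts were tested on simulated data. Polyp and NF-kB tables were fitted separately in the same way. Alternatives covered pseudocount, filter, scaling, variance moderation, array quality weights, model and left-out libraries. Genes were named by the rule given in the text, with at most 2 per direction that lack a reference symbol. The comparison, lists and genes were chosen with earlier results of these data known.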

Additional observations from a re-analysis of the deposited data

Results flagged for a closer look

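LOC5504526 had a value of 34.8 normalised counts in STING shRNA 2 2'3'-cGAMP library 1, above the other 3 STING libraries with 2'3'-cGAMP, which held 20.8 to 23.2. The gap to its nearest neighbour was 0.834 of the range, just over the limit used for 4 samples. It still lay below both GFP libraries with 2'3'-cGAMP, at 106.2 and 81.3. This was the only such value in 42 sets of 4 libraries over 21 named genes, and chance gives about 5 percent of sets.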

How the results depend on the processing

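Of 159 counts of called genes under other settings, 133 stayed within 1.5 times the reported count and 26 moved. Array quality weights called 2093 genes for STING against GFP shRNA over both treatments (1301 higher, 792 lower) and 2809 for STING shRNA 2, and a pseudocount of 5 called 1 for STING shRNA 2; the cause was not tested. The untreated count was 0 with a pseudocount of 5, with array quality weights, with the untreated libraries alone, with the 2 high-zero GFP libraries left out, and with the replicate block. Leaving out 1 library gave 0 to 1840 calls over both treatments (1840 without STING shRNA 1 untreated library 1, 1 with the second 2'3'-cGAMP library of STING shRNA 2 left out), 0 to 1506 untreated, 0 to 70 in 2'3'-cGAMP, 0 to 5 for STING shRNA 2, 0 to 660 for the difference between treatments, and 0 for STING shRNA 1 and for STING shRNA 2 against 1. The 1506 arose without GFP untreated library 2, when 62.4% of called genes were at 0 in the lone control, and the 70 without GFP 2'3'-cGAMP library 5, when 65.7% were. A lone library is assumed to vary like the other groups. The weights and the fit with 1840 calls shared 1232 genes, 58.9% of the weights' calls and 67% of the other's.

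LOC5506676 was called with array quality weights (adjusted p = 0.00334, limma), without STING shRNA 1 untreated library 1 (0.0274) and without STING shRNA 2 2'3'-cGAMP library 2 (0.0498), and its adjusted p reached 0.991 without the 2 libraries with most genes at 0. None of the 21 named genes changed sign in 23 settings each. Their STING and GFP libraries did not overlap in the treatments compared, so leaving libraries out could hardly turn a sign. Same-numbered libraries had deviations that correlated by 0.0225 to 0.277 in 10 pairs of groups, above 0.1 in 2. All 10 values were positive but small, and no pair held the GFP 2'3'-cGAMP libraries. Such values cannot decide whether same-numbered libraries share a batch, which was not tested further. The replicate block could be fitted for untreated embryos, where 0 genes were called, and for STING shRNA 2 against 1, since GFP libraries 4 and 5 share no number with the others. Read depth is unknown, so what depth limits could not be judged.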

Other observations

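Leaving out a library can only loosen the rule that STING and GFP libraries do not overlap, and the counts moved unevenly when it was done. With all 12 libraries 121 genes were apart on the lower side and 256 on the higher. Without STING shRNA 1 untreated library 1 they were 1151 and 1542, and without GFP untreated library 2 they were 945 and 1247, whereas for the other 10 libraries left out in turn they were 134 to 332 on the lower and 270 to 606 on the higher side. STING shRNA 1 untreated library 1 also had a low array quality weight, 0.208, close to GFP 2'3'-cGAMP library 4 (0.232) and GFP untreated library 1 (0.142). The weight of the other 9 libraries was 0.522 to 5.14.

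Of 278 genes apart in both treatments that have a place in the reference and a mean of at least 50, 5 pairs were direct neighbours there, and 3 of these had both members higher with STING shRNAs. These were LOC5518835 and LOC5518836 (log2 differences 0.82 and 0.55), LOC5513715 and LOC5513714 (0.55 and 0.67), and LOC5512432 and LOC5512421 (0.27 and 0.30). Neighbours may share reads where their transcripts overlap, which was not tested. The pairs were picked after their values were seen.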
